A study of Mus musculus with 2 samples.

Results

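The nuclear factor I (NFI) family was examined in total RNA from mouse embryonic neural tube. Its members, Nfia, Nfib, Nfic and Nfix, were taken by gene symbol. They are 4 of 43346 annotated genes in the deposited tables, with 34 of 103639 annotated transcripts. The tissue was dissected from B6NCrl embryos at 15.5 days, healthy and of both sexes, and the labels name no treatment and no genetic change. Replicate 1 pooled 78 embryos and replicate 2 pooled 62, and 10 ng of RNA, depleted of short species, entered each library. The 2 libraries form 1 group, so no condition was compared and no test between conditions was possible. Every SD is over these 2 pools. In whole tissue, fewer cells of a type and less RNA per cell cannot be told apart.

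NFI proteins are transcription factors that bind DNA as homodimers or as heterodimers with each other, at a palindrome with the arms TTGGC and GCCAA. In the developing spinal cord, Nfia and Nfib mark the switch of progenitors from making neurons to making glia, and later-born neurons also carry them. Nfix acts with them in neural progenitors and, in fetal muscle, drives the change from embryonic to fetal gene expression. Nfic is known best from tooth root formation and is broadly transcribed.

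The tissue label was checked against markers. Levels are in TPM, transcripts per 1000000, which scales a count by transcript length and library total. All 6 trunk Hox genes listed reached 1 TPM in each library. None of the 8 regulators typical of forebrain or midbrain did (0 of 8), and 35.8% of all annotated genes did. Annotated genes drew 34678043 expected counts in replicate 1 and 41355355 in replicate 2. Pan-neuronal markers summed to 4589 TPM in replicate 1 and 5455 TPM in replicate 2. RNA of other tissues was present in both libraries. Markers of mesenchyme and meninges summed to 1137 and 881 TPM, and those of dorsal root ganglion to 364 and 416 TPM. Skeletal muscle markers summed to 156 and 278 TPM. Replicate 1 stood apart in RNA of thymocytes and epithelium. The 7 markers of thymic and other epithelium summed to 774 TPM in replicate 1 and 8.16 TPM in replicate 2. The 7 thymocyte markers summed to 261 and 9.56 TPM. Cd3g (93.0 TPM in replicate 1) and Foxn1 (9.69 TPM), among the defining markers, were listed at 0 in replicate 2. Lck stood at 81.5 and 9.17 TPM in replicates 1 and 2, and Cd4 and Cd8a lay under 1 TPM in both. Results for the NFI genes are therefore given for each library.

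All 4 genes carry an internal coding exon of 532 bases, which encodes most of the DNA-binding and dimerization domain. It lies at chr4:97783082-97783613 on the plus strand for Nfia, and on the minus strand at chr4:82498238-82498769 for Nfib, chr10:81420267-81420798 for Nfic and chr8:84771784-84772315 for Nfix (GRCm38). Its first 120 bases in transcript sense, from the GENCODE M21 transcripts, are shown as a part of the exon that the members have in common. Capitals mark bases identical in all 4 genes.
Nfia: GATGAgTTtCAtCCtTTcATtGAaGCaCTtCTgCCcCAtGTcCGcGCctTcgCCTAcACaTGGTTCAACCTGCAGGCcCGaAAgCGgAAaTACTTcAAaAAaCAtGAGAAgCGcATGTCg
Nfib: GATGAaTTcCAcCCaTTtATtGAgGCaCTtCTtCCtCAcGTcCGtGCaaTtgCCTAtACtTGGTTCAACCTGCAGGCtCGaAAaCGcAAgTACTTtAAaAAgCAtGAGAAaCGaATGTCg
Nfic: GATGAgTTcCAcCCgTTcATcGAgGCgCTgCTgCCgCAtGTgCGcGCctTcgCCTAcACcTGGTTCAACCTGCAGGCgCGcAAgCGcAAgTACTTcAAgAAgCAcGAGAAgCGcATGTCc
Nfix: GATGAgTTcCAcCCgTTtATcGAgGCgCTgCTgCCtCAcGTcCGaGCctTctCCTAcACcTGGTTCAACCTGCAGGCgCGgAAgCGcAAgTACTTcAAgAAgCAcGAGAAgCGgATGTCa
Of the 532 positions, 351 (65.98%) were identical in all 4 genes, including 88 of the 120 printed, and the longest run without a difference was 17 bases. In pairs, identity over this exon was lowest between Nfia and Nfic, at 75.8%, and highest between Nfic and Nfix, at 82.0%. Over all annotated transcripts, the longest exact run shared by any pair was 32 bases, between Nfic and Nfix. No word of 100 bases, the fragment length implied by the deposited effective lengths, was shared by any pair of members (0 in each of the 6 pairs).

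What precedes this exon differs between transcripts and gives the members their amino termini. The first 45 coding bases are printed for the main coding starts, since the transcript shares below are grouped by them. Each begins with its start codon, and capitals mark bases of the 532-base exon.
Nfia-202: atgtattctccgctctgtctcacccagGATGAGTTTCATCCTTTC
Nfib-202: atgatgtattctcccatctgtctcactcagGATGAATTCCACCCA
Nfib-203: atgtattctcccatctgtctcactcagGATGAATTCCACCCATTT
Nfic-201: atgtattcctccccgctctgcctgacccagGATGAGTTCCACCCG
Nfix-205: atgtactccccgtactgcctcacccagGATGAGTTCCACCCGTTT
Nfia-208: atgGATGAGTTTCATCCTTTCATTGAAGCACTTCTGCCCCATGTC
Nfic-204: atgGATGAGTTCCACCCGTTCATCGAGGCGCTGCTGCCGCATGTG
Nfix-204: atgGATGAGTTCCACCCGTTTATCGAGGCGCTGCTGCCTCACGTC
In the long type of start, 27 or 30 coding bases come before the exon, and they resemble each other in the 4 genes. Nfib-201 and Nfib-202 are annotated to begin 1 codon upstream of the start used by Nfib-203. In the short type, a different first exon supplies no more than the 3 bases of the start codon, and the reading frame goes straight into the shared exon. Nfia-208, Nfic-204, Nfix-203 and Nfix-204 have the short start, and no annotated Nfib transcript in the tables does. Nfib-212 has another start, with 75 coding bases before the exon.

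At the gene level the members were all well expressed and lay within a narrow range of each other in TPM. Nfix (ENSMUSG00000001911.12, chromosome 8, 84699876 to 84800344, minus strand) stood at 49.20 TPM in replicate 1 and 57.43 TPM in replicate 2, a mean of 53.3 ± 5.82 TPM (SD, n = 2). Nfib (ENSMUSG00000008575.13, chromosome 4, 82290173 to 82705750, minus strand) stood at 44.20 and 47.77 TPM, or 46.0 ± 2.52 TPM. Nfia (ENSMUSG00000028565.14, chromosome 4, 97772734 to 98118874, plus strand) had 31.43 and 29.46 TPM, or 30.4 ± 1.39 TPM. The lowest was Nfic (ENSMUSG00000055053.13, chromosome 10, 81396186 to 81455635, minus strand), with 26.15 and 26.12 TPM, or 26.1 ± 0.0212 TPM. All 4 reached 1 TPM in both libraries, against 35.8% of annotated genes. The share of annotated genes was 39.6% at 0.5 TPM and 26.5% at 5 TPM, which all 4 members also reached. Among 21474 protein-coding genes, Nfix ranked 3508 in replicate 1 and 3012 in replicate 2, and Nfic ranked 5784 and 5608. All members thus lay above at least 73.1% of protein-coding genes in each library.

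By deposited TPM the order was Nfix, Nfib, Nfia and Nfic in both libraries, and the values of neighbours did not overlap between libraries. Nfix exceeded Nfib by 1.16 ± 0.063-fold, Nfib exceeded Nfia by 1.51 ± 0.152-fold and Nfia exceeded Nfic by 1.16 ± 0.0524-fold (SD, n = 2). The tables also give an interval for each TPM, whose level is not stated and which covers the estimate within a library, not the spread between pools. These intervals overlapped between Nfia and Nfic in both libraries and between Nfib and Nfix in replicate 1. For Nfix and Nfib in replicate 1 they ran from 45.1 to 52.1 TPM and from 41.6 to 45.6 TPM. Summed over the family, the level was 151 TPM in replicate 1 and 161 TPM in replicate 2. Nfix held 34.2 ± 2.22% of that sum, Nfib 29.5 ± 0.308%, Nfia 19.6 ± 1.76% and Nfic 16.8 ± 0.76% (n = 2).

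The place of Nfix at the top rested on the length its counts were divided by. Nfix drew 1987 and 2774 expected counts in replicates 1 and 2, close to the 1983 and 2122 of Nfic and far below the 6171 and 7711 of Nfib and the 5518 and 6350 of Nfia. Such counts grow with transcript length and are no level. The mean transcript length that the tables assign to Nfix was 1919 bases in replicate 1, against 8013 bases for Nfia, 6393 bases for Nfib and 3518 bases for Nfic. When each count was instead divided by the length of the gene's longest annotated transcript, a choice made after the data were seen, Nfib stood at 31.6 ± 1.02 on the TPM scale, Nfia at 25.9 ± 0.67, Nfix at 18.1 ± 2.00 and Nfic at 13.8 ± 1.07 (n = 2). Nfix then ranked 3 of 4. Nfib exceeded Nfia, and Nfia exceeded Nfic, with either length.

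**Figure D1:**
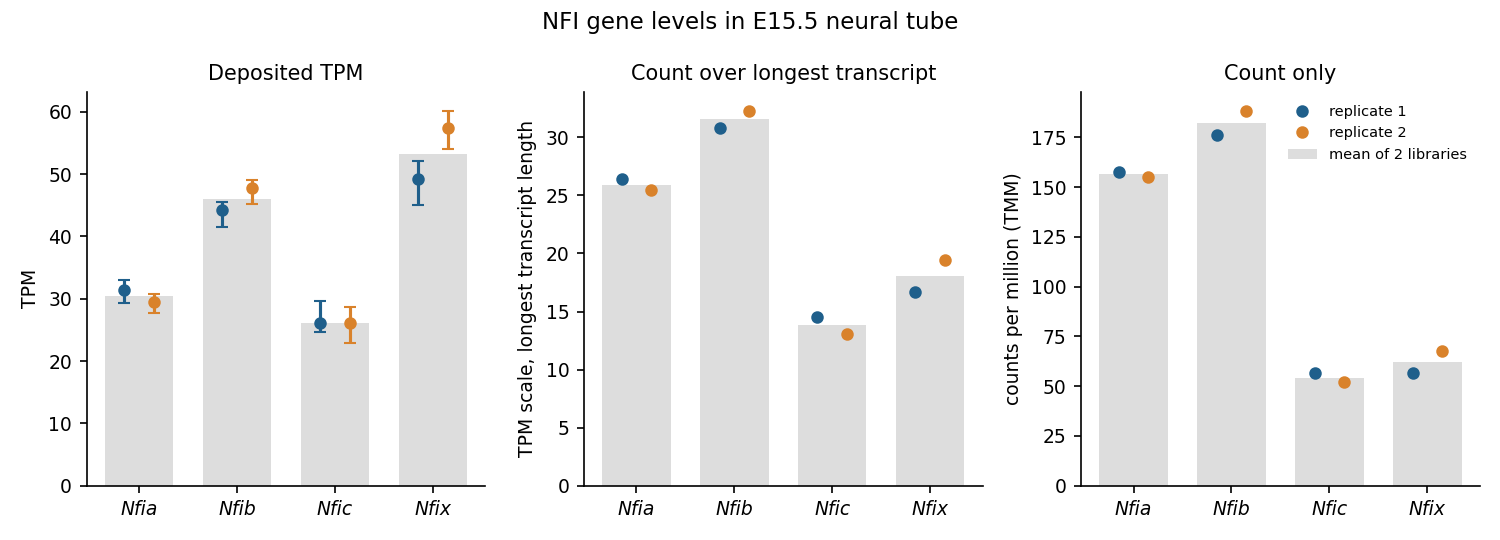
NFI gene levels by library. The left panel shows deposited TPM with the deposited interval as bars, the middle panel counts divided by the longest transcript on the TPM scale, and the right panel TMM-scaled counts per 1000000 with no division by length. Points are the 2 libraries and grey bars their means. Nfix is highest at 53.3 TPM on the left and ranks 3 in the other panels, while Nfic is lowest in all 3.

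The annotated Nfix models account for that short mean length. Nfix-205, a model of 1465 bases whose coding sequence has no annotated end, held 49.9% of Nfix TPM in replicate 1 and 53.0% in replicate 2. Next was Nfix-201 (1403 bases), with 21.9% and 23.1%. Nfix-204, at 5476 bases the longest, held 13.6% and 12.4% of TPM but 40.2% and 36.6% of the gene's expected counts. Its last exon is annotated at 3966 bases, whereas that of Nfix-201, Nfix-202 and Nfix-203 starts at the same base and is cut at 64, 62 and 52 bases. Reads from the remainder of that exon could be given to Nfix-204 or to the short noncoding models Nfix-207 and Nfix-208, and to no other coding model. Among the smaller Nfix models, Nfix-203 held 4.76% and 5.42% of TPM, the retained-intron model Nfix-206 held 4.20% and 5.09%, and Nfix-208 held 5.60% and 0.62% on 8.26 and 1.27 counts. The TPM of Nfix, and its split among transcripts, are tied to these models.

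The long coding start prevailed in all 4 genes, and the short start made up a part of Nfia, Nfic and Nfix. In Nfic, the short start of Nfic-204 held 25.7% of TPM in replicate 1 and 24.7% in replicate 2, and the long start held 73.8% and 63.7%. Nfix-203 and Nfix-204, with the short start, together held 18.4% and 17.8% of Nfix TPM. For Nfia the short start of Nfia-208 held 11.3% and 6.20%, on 59.5 and 36.4 expected counts. As a share of counts, not of TPM, the short start was 1.08% and 0.573% in Nfia, 11.7% and 12.5% in Nfic, and 45.9% and 43.0% in Nfix. Nfix therefore had a smaller short-start share than Nfic by TPM and a larger one by count, in both libraries. The TPM shares of Nfic-204 and Nfia-208 are tied to short models. Nfic-204 is annotated at 1655 bases, against 3348 bases for Nfic-201. Nfia-208, a model with no annotated end, has 851 bases, against 9526 bases for Nfia-202. Nfix-204 carries the short start and the long last exon together, so its first and last exons cannot be told apart in these shares.

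**Figure D2:**
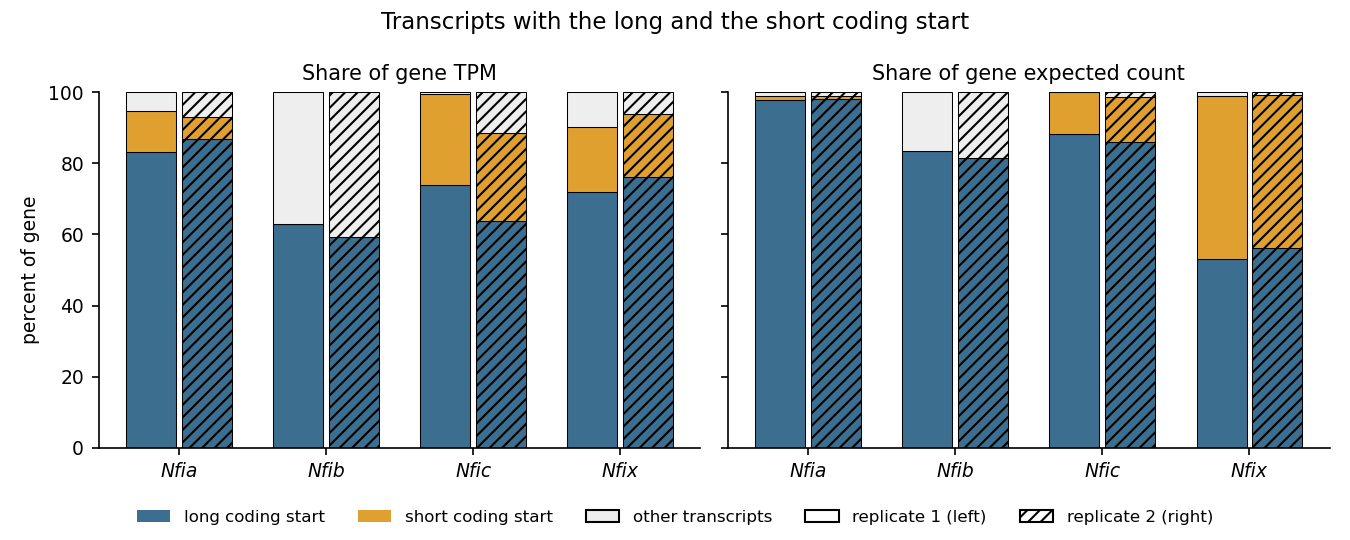
Share of each gene in transcripts with the long and the short coding start. Bars are single libraries, as percent of the gene's TPM on the left and of its expected counts on the right. The short start takes 45.9% and 43.0% of Nfix counts but 18.4% and 17.8% of Nfix TPM. Nfib has no annotated transcript with the short start, so no share could be assigned to it.

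In Nfia, 1 coding form led in both libraries, and the gap between the libraries in its share was the widest among the 34 transcripts. Nfia-202, which skips none of the variable coding exons of Nfia, held 54.3% of Nfia TPM in replicate 1 and 35.97% in replicate 2, a mean of 45.1% with a gap of 18.3 percentage points. Nfia-204 held 8.33% and 17.4%, Nfia-205 held 14.4% and 19.5%, and Nfia-203 held 4.46% and 10.7%. The deposited TPM intervals of Nfia-202 were 11.9 to 18.4 in replicate 1 and 8.43 to 12.8 in replicate 2, so they overlapped. These 4 models share their start region and a last exon of 7654 or 7657 bases and differ in a few internal exons. The exon of 66 bases at chr4:97956374-97956439 is skipped in Nfia-201 and Nfia-204. It was included in 89.2% and 78.1% of the TPM of coding-type transcripts that span it. Another, of 129 bases and skipped in Nfia-203, was included in 94.7% and 87.8%. The noncoding Nfia-206 held 5.40% and 6.21% of Nfia TPM.

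Among the 4 genes, Nfib had the largest share of TPM in transcripts with no annotated coding sequence. The coding form Nfib-202 held 56.1% and 53.7% of Nfib TPM in replicates 1 and 2 and 74.2% and 73.3% of its expected counts. It skips 3 internal exons near the 3′ end, of 166, 83 and 89 bases. The inclusion of those exons among spanning coding transcripts was low, from 7.81% to 10.5% over the exons and libraries. Nfib-201, which carries all 3, held 5.21% and 4.63% of TPM. Nfib-206 also carries all 3 and was listed at 0 in both libraries. The 5 Nfib transcripts without a coding sequence held 35.2% and 40.0% of TPM, and 16.3% and 18.6% of counts. In the other genes such transcripts held at most 11.6% of TPM in either library. Nfib-208, annotated as a retained intron, led them with 21.02% and 22.7%. Nfib-207, also annotated as a retained intron, held 5.85% and 6.76%, and the short Nfib-211 held 5.68% and 7.34% on 15.6 and 26.0 expected counts. Nfib-208 contains the 532-base exon and runs 2254 bases on into the intron that follows. In total RNA, a retained intron in a finished transcript and one in a precursor not yet spliced cannot be told apart.

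In Nfic, the 3 leading forms kept similar shares in both libraries. Nfic-201 held 50.1% and 43.9% of TPM, Nfic-204 25.7% and 24.7%, and Nfic-203 21.6% and 19.8%. Nfic-203 has a last exon of 4886 bases, against 1934 bases in Nfic-201, and held 38.8% and 39.5% of the counts. Nfic-206, a transcript of 476 bases with no coding sequence, held 0.57% and 11.6%, on 1.25 and 30.2 expected counts. Its TPM intervals, 6.44e-05 to 3.04 and 0.419 to 5.29, overlapped.

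For 3 members, an exon whose inclusion varied between forms is shown, since such exons set the coding forms apart. Nfic has such an exon too, not printed here, of 77 bases and skipped in Nfic-203 and Nfic-205. It was included in 78.3% and 77.7% of spanning coding TPM in replicates 1 and 2. Capitals mark the exon, and 10 bases of each neighbouring exon of the named transcript are in lower case.
Nfia-202: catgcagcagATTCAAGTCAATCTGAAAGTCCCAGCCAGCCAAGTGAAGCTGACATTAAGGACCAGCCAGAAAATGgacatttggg
Nfib-201: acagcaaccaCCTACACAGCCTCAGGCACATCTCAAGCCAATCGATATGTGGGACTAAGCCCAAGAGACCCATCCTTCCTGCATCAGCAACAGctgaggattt
Nfix-204: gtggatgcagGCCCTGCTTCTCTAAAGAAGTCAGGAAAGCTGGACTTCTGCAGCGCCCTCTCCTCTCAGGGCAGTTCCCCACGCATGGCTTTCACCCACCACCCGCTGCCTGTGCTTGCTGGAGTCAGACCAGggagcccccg
The exon in Nfia-202 is the one of 66 bases described above. That in Nfib-201 lies at chr4:82320474-82320556 on the minus strand and was included in 10.5% and 9.36% of spanning coding TPM. The exon in Nfix-204 (chr8:84723728-84723850, minus strand, 123 bases) was included in 70.4% and 69.6%. It is skipped in Nfix-201 and Nfix-203. The Nfia and Nfix exons have lengths that keep the reading frame, and the Nfib exon of 83 bases does not.

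**Figure D3:**
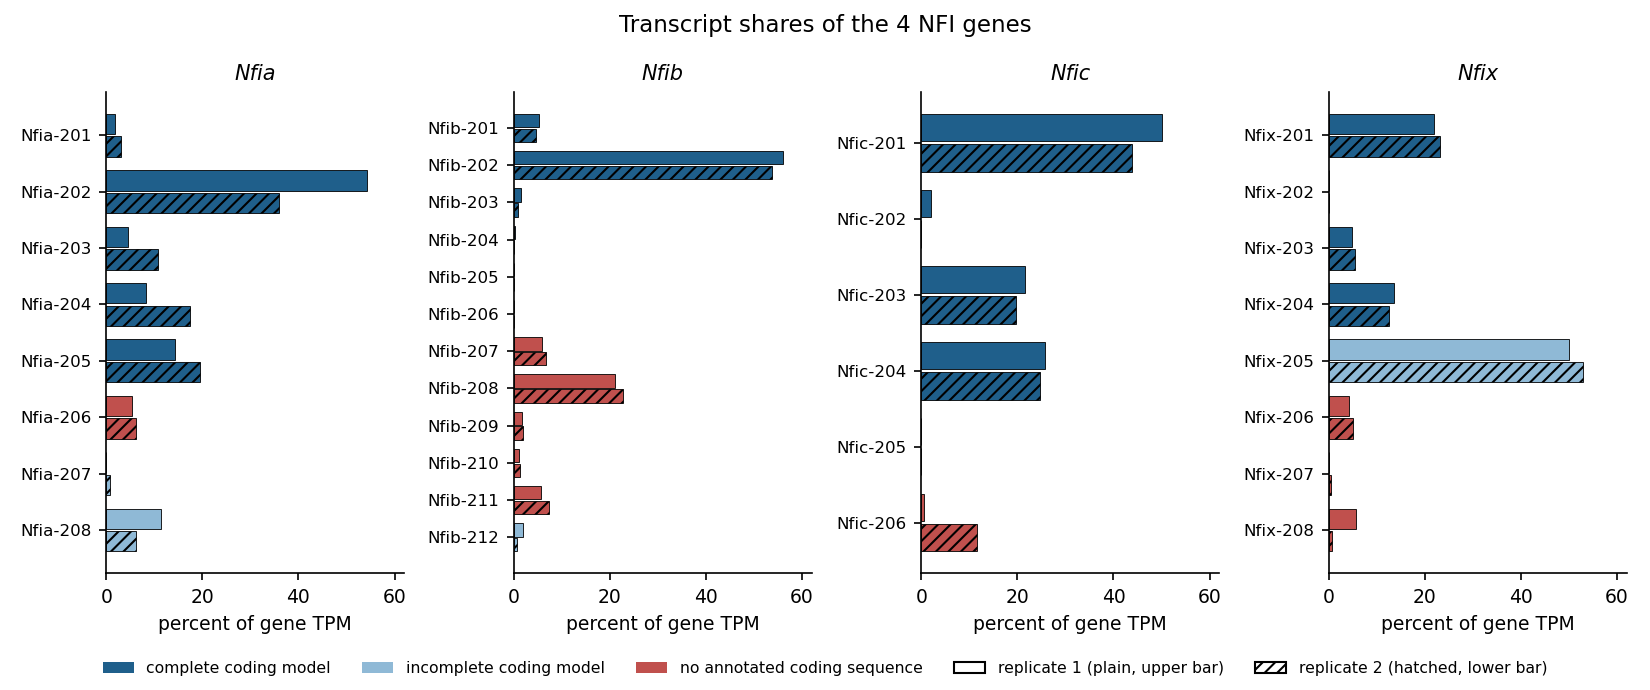
Share of each annotated transcript in the TPM of its gene. Plain upper bars are replicate 1 and hatched lower bars replicate 2, coloured by whether the model is a complete coding sequence, an incomplete one or has none. Nfib-208 is the largest transcript without a coding sequence at 21.02% and 22.7%, and Nfia-202 has the widest gap between libraries.

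Across the 34 transcripts, 21 reached 5% of their gene in at least 1 library and 4 (Nfib-205, Nfib-206, Nfic-205 and Nfix-202) were listed at 0 in both. A share was called apart between the libraries at 20 percentage points or more. By that rule 0 of 34 were apart, against 1.04% of 53807 transcripts of genes with several transcripts and a mean of at least 5 TPM. At 10 points, Nfia-202 and Nfic-206 were apart, 2 of 34, against 5.17%. TPM intervals of the libraries failed to overlap for 2 of 34 (Nfib-208 and Nfix-205), against 8.45%. Each of these counts lay near or under the background share.

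In NFI gene levels, the libraries differed most for Nfix. On the log2 scale of TPM + 1, replicate 1 over replicate 2, Nfia stood at 0.09, Nfib at -0.11, Nfic at 0.00 (0.0016) and Nfix at -0.22. Genes were called apart at an absolute value of 1 or more, with a mean of at least 5 TPM and 50 summed counts. None of the 4 members was apart (0 of 4), against 3.48% of 11969 genes that met those minimums, of which 400 (3.34%) were higher in replicate 1 and 16 (0.134%) in replicate 2. Over those 11969 genes the median absolute value was 0.15, which Nfix exceeded. With no minimums the share apart was 4.86%, and the members stayed at 0 of 4. At either share, no call among 4 is no result about the members.

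Lists of other cells varied in how far they differed between the libraries. The median log2 ratio was 5.39 for 6 measured genes of thymic and other epithelium, 5.13 for 4 thymocyte genes, 3.21 for 5 smooth muscle genes and 1.21 for 6 cell cycle genes, all toward replicate 1. Smaller medians were found for mesenchyme and meninges (0.42), endothelium (0.30), oligodendrocyte precursors (0.05), microglia and macrophages (0.03) and radial glia and astrocytes (-0.06), against -0.05 for the NFI family. Skeletal muscle went the other way, at -0.68 over 7 genes, with 8 markers summing to 156 TPM in replicate 1 and 278 TPM in replicate 2. Ckm, the muscle creatine kinase, was apart at 10.2 and 25.03 TPM. Cartilage stood at -0.75 over 4 genes, with Matn1 at 2.49 and 8.87 TPM. Nfix, higher in replicate 2, lay in the same direction as the muscle and cartilage lists and as the pan-neuronal list (-0.28). The medians for trunk Hox genes (-0.33), spinal temporal factors (-0.26), dorsal root ganglion (-0.18) and NFI regulators and partners (-0.14) shared that direction. Members of 2 of these lists were split. Hoxa5 was apart at 22.0 and 60.6 TPM, whereas Hoxd10 went the other way (0.43). Among the regulators and partners, Notch1 (0.89), Stat3 (0.21), Sox10 (0.16) and Rbpj (0.05) went the other way. The part of any of these lists in the Nfix value was not tested.

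**Figure D4:**
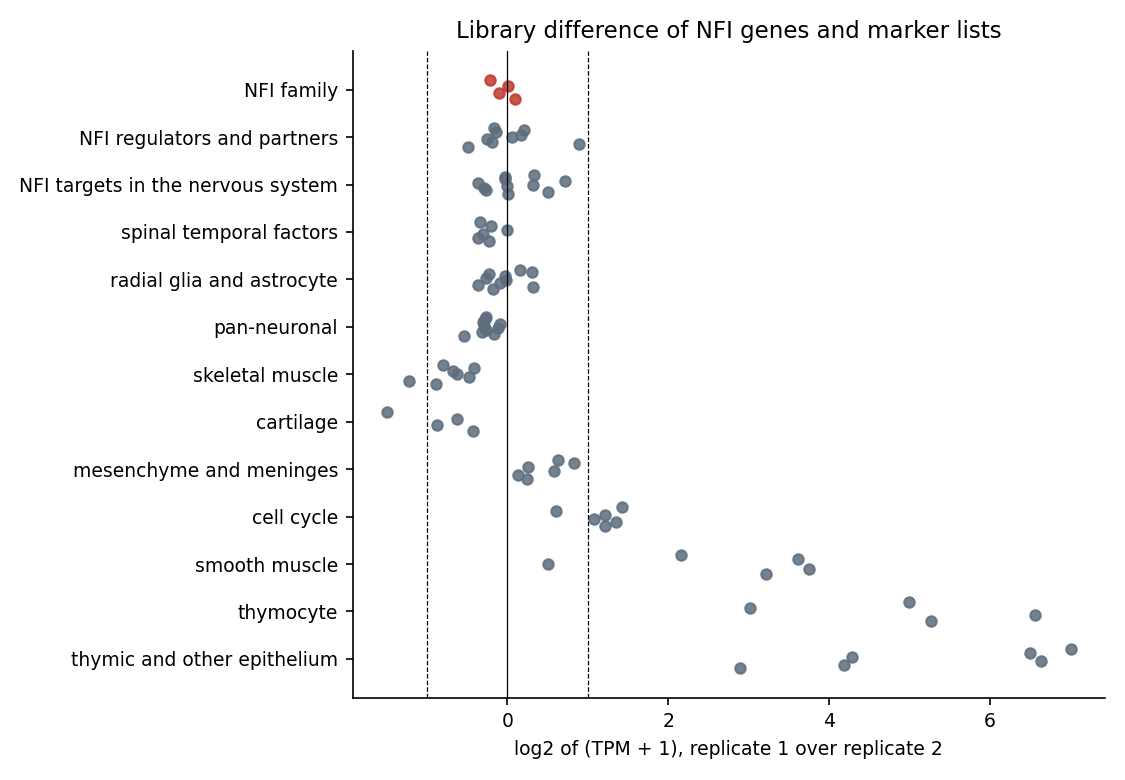
Difference between the libraries for NFI genes and marker lists. Each point is a gene with a mean of at least 5 TPM and 50 summed counts, and the x axis is log2 of TPM + 1, replicate 1 over replicate 2. Dashed lines mark a value of 1 either way. The NFI genes lie between -0.22 and 0.09, while all 6 epithelial genes lie beyond 1.

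Genes that act with NFI factors in the glial switch were detected in both bulk libraries, which do not show whether they share cells. All 9 listed regulators and partners reached 1 TPM in both libraries, with a median of 19.3 TPM, against 35.8% of all annotated genes and a median of 0.155 TPM over those genes. Hes5, a Notch effector that keeps progenitors from differentiating, was highest at 65.9 TPM in replicate 1 and 92.8 TPM in replicate 2. Stat3, which carries signals that promote astrocytes, had 55.9 and 48.3 TPM, and Zbtb20 had 38.9 and 43.8 TPM. The lowest were Olig2 of the oligodendrocyte and motor neuron lineages, at 7.23 and 8.38 TPM, Sox10 at 10.8 and 9.51 TPM and Pou3f2 at 9.72 and 11.8 TPM. Sox9, which induces Nfia and pairs with its product, stood at 28.8 and 31.8 TPM, close to Nfia. Notch1 differed most, at 18.6 and 9.59 TPM (log2 ratio 0.89), and 0 of the 9 were apart, against 3.48% of all genes tested.

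Targets of NFI factors spanned a wide range of levels. Of 14 listed genes, 13 reached 1 TPM in both libraries, against 35.8% of annotated genes, and the median was 15.6 TPM. The radial glial lipid carrier Fabp7 led at 1417 TPM in replicate 1 and 1833 TPM in replicate 2, ahead of the glutamate transporter Slc1a3 (139 and 142 TPM) and the adhesion molecule Cdh2 (78.6 and 94.8 TPM). Mmd2 and Apcdd1, reported as joint targets of Nfia and Sox9, stood at 47.4 and 48.4 TPM and at 5.33 and 5.31 TPM. The lowest were Gabra6, a receptor subunit of mature cerebellar granule neurons, at 0.02 TPM in replicate 1 and listed at 0 in replicate 2, Gfap of mature astrocytes, at 3.45 and 2.00 TPM, and Insc, a spindle orientation factor, at 4.23 and 3.83 TPM. Ezh2, a Polycomb enzyme that Nfib represses in mouse cortex, had 47.1 and 37.7 TPM. Of the 11 genes that met the minimums 0 were apart, against 3.48% of all genes that met them, a share at which no call among 11 is no result about the targets.

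Factors that order spinal neurons by birth date were also compared. Of 9, 8 reached 1 TPM in both libraries, against 35.8% of annotated genes, with a median of 13.1 TPM. Tcf4, Neurod6 and Zfhx3 were highest, at 118 and 118 TPM, 34.4 and 44.7 TPM, and 16.5 and 19.2 TPM in replicates 1 and 2. Onecut3 (0.51 and 0.86 TPM), Onecut2 (1.91 and 2.21 TPM) and Onecut1 (2.11 and 2.91 TPM), markers of early-born neurons, were lowest. In deposited TPM, Tcf4 exceeded all 4 NFI genes in both libraries, and Neurod6 exceeded Nfia and Nfic. Each NFI gene exceeded Zfhx3 and the 3 Onecut genes in that unit. The place of Nfix and Nfic above Zfhx3 rested on the division by length. Zfhx3 drew 5308 and 7359 expected counts in replicates 1 and 2, more than either of them. Bulk levels do not show which cells carried the NFI transcripts.

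**Figure D5:**
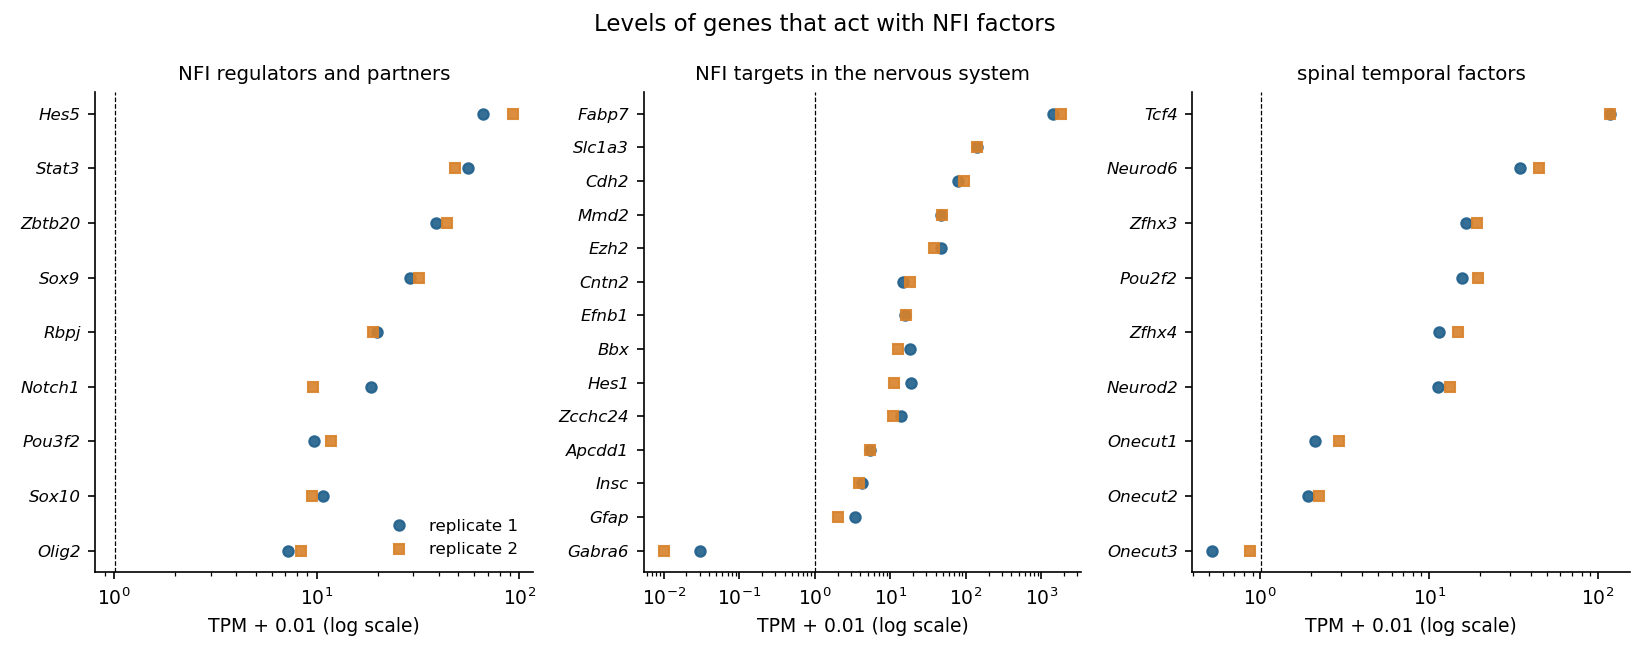
Levels of regulators and partners, reported targets and spinal temporal factors. Circles are replicate 1 and squares replicate 2, on a log axis of TPM + 0.01, and the dashed line marks 1 TPM. Fabp7 is highest at 1417 and 1833 TPM, and Gabra6 and Onecut3 are the genes under 1 TPM in both libraries.

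Annotated genes that overlap the members lay below them in TPM. On the opposite strand, E130114P18Rik shares 4 exon bases with Nfia and had 11.1 and 15.1 TPM in replicates 1 and 2. Gm16104 covers a whole 72-base exon of Nfic and had 13 and 11 expected counts. G430095P16Rik shares 137 exon bases with Nfix and drew 20.2 and 18.3 counts. Lyl1 shares 4 exon bases with the 3′ end of Nfix-204 and had 5.03 and 2.55 TPM. Within Nfib, the antisense gene Gm11266 shares 0 exon bases and had 4.50 and 6.80 TPM. The other 4 genes inside Nfib had at most 1 count. No source used here states whether the counting used strand, so reads from shared exon bases cannot be told apart by strand.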

How the data were processed

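Total RNA was sequenced from 2 pools of embryonic neural tube, replicates 1 and 2 of 1 group. The authors deposited gene and transcript tables for mm10 and GENCODE M4, per the deposited notes. No source used here names the aligner, the quantifier or the strand setting. The deposited columns are expected counts (reads shared among transcripts by a model), TPM, FPKM and IsoPct, a transcript's percent of its gene, per the file headers. The posterior columns, TPM intervals among them, were estimated by the authors before deposit and are not a score, per the file headers. They hold a standard deviation of the count, a posterior mean TPM and the bounds of a TPM interval, each within a library. TPM was scaled over all 69691 entries, including 97 spike-in and control entries and 26248 named by a number alone, which were left out here.

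Symbols, transcript names, exons and sequences came from GENCODE M21 (GRCm38), matched by identifier without version: 42462 of 43346 genes matched, and all 34 NFI transcripts had the same length in both. Expected counts were rounded for edgeR 4.0.16 (TMM) and DESeq2 1.42.0 size factors, in R 4.3.3, over 19582 genes with 10 or more counts in a library. The rest ran in Python 3.11.15 with numpy 2.4.6 and pandas 2.3.3, and call rules were checked on simulated data. Named genes were the members, transcripts at 5% or more, overlapping genes and the 3 highest and lowest of each related list. Others, and marker genes that bear on the members, were added after their values were seen. Members and lists were chosen with earlier results of these data known. Levels were taken as TPM, and alternatives were other units, lengths, estimates, pseudocounts, thresholds and single libraries. Precision is limited by 2 pools, whose SD covers the spread between these samples.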

Additional observations from a re-analysis of the deposited data

How the results depend on the processing

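The order of the members, their shares and their levels depended on the division by length. In TMM-scaled counts per 1000000, Nfib averaged 182, Nfia 156, Nfix 62.3 and Nfic 54.2, summing to 455. In counts over DESeq2 size factors the means were 6902, 5919.6, 2357 and 2053, summing to 17232. Both gave Nfib 40.0%, Nfia 34.4%, Nfix 13.7% and Nfic 11.9% of the family. With the longest transcript's length, chosen after seeing the data, the shares were 35.3%, 29.0%, 20.2% and 15.5% and the levels 31.6, 25.9, 18.1 and 13.8, summing to 89.4. Under these 3 settings Nfib ranked 1, Nfia 2 and Nfix 3. Rescaled to annotated genes, TPM was 56.3 for Nfix, 48.5 for Nfib, 32.1 for Nfia and 27.6 for Nfic, summing to 164. As FPKM, Nfix had 33.4, Nfib 28.8, Nfia 19.1 and Nfic 16.4, summing to 97.6. The posterior mean for Nfic was 26.5 TPM. By expected count, Nfib-202 held 73.8% of its gene and Nfix-205 38.6%. At 10 percentage points, 2 transcript shares were apart in place of 0. The number of members apart between the libraries was 0 under all alternatives run, and either library alone kept the order by TPM. No paired analysis was possible because there is 1 group. Leaving out a library leaves 1 sample, a value with no spread. Shares of transcripts with few counts, such as Nfia-208 and Nfic-206, are limited by depth.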
